A study of Mus musculus with 6 samples.

Results

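The nuclear genes for the mitochondrial respiratory chain and ATP synthase were examined in mouse hippocampus after venlafaxine. They were chosen by name: probe sets of an Affymetrix Mouse Genome 430 2.0 array with 1 gene symbol, where the symbol starts with Ndufa, Ndufb, Ndufc, Ndufs or Ndufv (complex I), Sdha to Sdhd (complex II), Uqcr (complex III), Cox4 to Cox8 (complex IV) or Atp5 (complex V), without the assembly factors named Ndufaf and Sdhaf. This gave 82 genes of 18193 on the array, measured by 169 probe sets, and each gene was represented by its brightest probe set over the 6 arrays. There were 36 genes of complex I, 4 of complex II, 8 of complex III, 17 of complex IV and 17 of complex V. A filter on dim genes (above the array's median on at least 2 arrays) left 78 of the 82 for testing, among 11743 tested genes in all, and took out Ndufa4l2, Ndufb4, Cox4i2 and Cox7b2. The name rule itself uses no measured value beyond the brightness that picked a probe set, though it was chosen with earlier results of these data known. Cox7a2l, better known as a factor that joins complexes III and IV, fits the name rule, and without it the 5 medians over all tested subunit genes, 1 for each comparison, moved by at most 0.0015 on the log2 scale.

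All animals were male DBA/2 mice, an inbred strain, housed singly, and venlafaxine, an inhibitor of serotonin and noradrenaline reuptake, was given in the drinking water for 30 days. The 3 groups received 0 (control), 30 (low dose) or 100 (high dose) mg/kg/day, with 10 animals each. Each group was hybridised as 2 pools, 1 of right and 1 of left hippocampi, so that 6 arrays stood for 30 animals and the 2 arrays of a group may come from the same animals. The p-values therefore measure how far pools of 1 group differ, a spread that can be partly technical. Control replicate 1 (right, RNA integrity number or RIN 8.7), low dose replicates 1 (right, RIN 9.1) and 2 (left, RIN 8.9) and high dose replicate 1 (left, RIN 8.5) were hybridised on the first date. Control replicate 2 (left, RIN 7.9) and high dose replicate 2 (right, RIN 8.2) were hybridised on the later date. Values are log2 expression levels by RMA, a method that summarises the probes of a probe set.

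The respiratory chain passes electrons from NADH (complex I) and succinate (complex II) through complex III to oxygen at complex IV, and complexes I, III and IV pump protons that drive ATP synthesis at complex V. Most subunits come from nuclear genes, a few from mitochondrial DNA, and several complex IV subunits exist in isoforms that differ between tissues. Neurons depend heavily on this pathway for the ATP that ion pumping and synaptic transmission use.

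Against the label as hippocampus, all 7 neuronal markers were above the filter. Snap25 at 14.4 and Camk2a at 13.9 (log2, mean of 6 arrays) mark neurons, and not those of the hippocampus alone. Prox1, a marker of dentate granule cells, was dim at 8.24, as was the glutamate transporter Slc17a7 at 8.65, so the values show neuronal tissue and do not single out the hippocampus. Array medians lay between 7.79 and 7.80, whereas the 95th percentile of an array's probe sets ran from 11.46 on control replicate 2 to 11.65 on low dose replicate 2. The deposited arrays thus differed in the upper range, where most of the subunit genes lie. In pooled tissue, fewer cells of a type and less RNA per cell cannot be told apart.

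Subunit genes were among the brightest signals on the arrays. Of the 78 tested genes, 69 had a mean above 11.53, the 95th percentile of all probe set means, and the median level was 12.72 against 9.58 for all tested genes. The levels moved about as little as those of all tested genes. The range over the 6 arrays was under 0.5 log2 for 78 of 78 subunit genes, where 95.3% of all tested genes met this mark. The median SD over the 6 arrays was 0.088, and 0.0925 for all tested genes. Levels depend on the probes of each probe set, so they are given by their place on the array and are not compared between genes.

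In complex I, the median level was 12.57. The iron-sulfur and flavin subunits that carry electrons all lay in the top range: Ndufs1 at 11.88 ± 0.072 in control, 11.95 ± 0.11 at the low dose and 11.95 ± 0.0068 at the high dose (mean ± SD, n = 2 arrays each). Ndufs7, near the quinone site, was at 12.49 ± 0.066, 12.60 ± 0.16 and 12.52 ± 0.011 in the same order. The values for Ndufv1, which binds the flavin, were 12.69 ± 0.049, 12.73 ± 0.12 and 12.72 ± 0.023, and for Ndufv2 they were 12.91 ± 0.077, 12.99 ± 0.12 and 12.92 ± 0.034. None of these differences between groups exceeded 0.12 log2. The accessory subunits Ndufa9 (6-array mean 12.26), Ndufb8 (12.91) and Ndufa4 (13.36), the last found with complex IV in later work, ranged over 0.20 log2 each. Ndufb9 had the largest SD of the complex, 0.13, from 12.99 on low dose replicate 1 to 13.30 on high dose replicate 2, and Ndufb1 the smallest, 0.037. Ndufab1, the mitochondrial acyl carrier protein, had a mean of 12.95 on its brightest probe set.

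Complex II, which also belongs to the citric acid cycle, has only 4 genes. Sdha, the flavoprotein, was at 12.71 and 12.67 on the control arrays, 12.66 and 12.89 on the low dose arrays and 12.69 and 12.70 on the high dose arrays. Sdhb, the iron-sulfur subunit, ran from 12.55 to 12.74 and the membrane anchor Sdhd from 11.51 to 11.72. The other anchor, Sdhc, had the largest SD, 0.15, with 10.63 and 10.28 in control, 10.43 and 10.52 at the low dose and 10.35 and 10.25 at the high dose. The control arrays of Sdhc differed from each other by more than any other pair of arrays of 1 group in complex II, so the groups overlapped between control and each dose.

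In complex III, the core subunit Uqcrc1 had the largest SD, 0.15. Its values were 12.28 and 12.10 in control, 12.28 and 12.51 at the low dose and 12.18 and 12.11 at the high dose, so that low dose replicate 2 stood above the others. The other core subunit, Uqcrc2, had the smallest SD, 0.075, from 12.82 to 13.01. The Rieske protein Uqcrfs1 ranged from 12.03 to 12.30, Uqcrb from 13.88 to 14.18 and Uqcrq from 11.91 to 12.13.

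Complex IV fell into 2 ranges. The genes of the forms found in most tissues were at 13.43 or above: Cox4i1, Cox5a, Cox5b, Cox6a1, Cox6b1, Cox6c, Cox7a2 and Cox8a had 6-array means from 13.43 (Cox8a) to 14.63 (Cox6a1), and Cox7a2l was at 12.30. The genes of isoforms known from muscle or testis were dim. Cox6a2, Cox7a1 and Cox8b, found in heart and skeletal muscle, were at 8.31, 7.81 and 8.17, and Cox6b2 and Cox8c, known from testis, at 7.93 and 8.57. Cox4i2 and Cox7b2 were below the filter, at 7.34 and 7.37. Cox7c, a subunit without tissue isoforms, was at 8.43 on its brighter single-symbol probe set. Of 7 skeletal and heart muscle markers, 4 passed the filter, and their summed level (log2 of the sum of all 7 linear values) was 10.97 to 10.98 in control, 10.97 to 10.99 at the low dose and 10.98 at the high dose. Cox5a had the smallest SD of the tested genes of the complex, 0.059, and Cox6a1 the largest, 0.20.

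In complex V, the catalytic subunit Atp5b was at 13.87 ± 0.0045 in control, 13.97 ± 0.14 at the low dose and 13.87 ± 0.0097 at the high dose. Its partner Atp5a1 ran from 13.68 to 13.90, and the stalk subunits Atp5c1, Atp5d and Atp5e from 13.31 to 13.62, 13.18 to 13.48 and 12.06 to 12.30. The peripheral stalk genes Atp5h, Atp5j and Atp5o had 6-array means of 13.63, 12.90 and 12.97. The c ring, the rotor that turns with proton flow, is encoded by 3 genes for an identical mature protein. Atp5g1 ran from 12.44 to 12.69, Atp5g3 from 13.72 to 14.02, and Atp5g2 had the largest range of the 78 subunit genes, 0.495, from 11.44 on control replicate 2 to 11.93 on low dose replicate 2. Atp5pb had the smallest SD of complex V, 0.051.

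**Figure D1:**
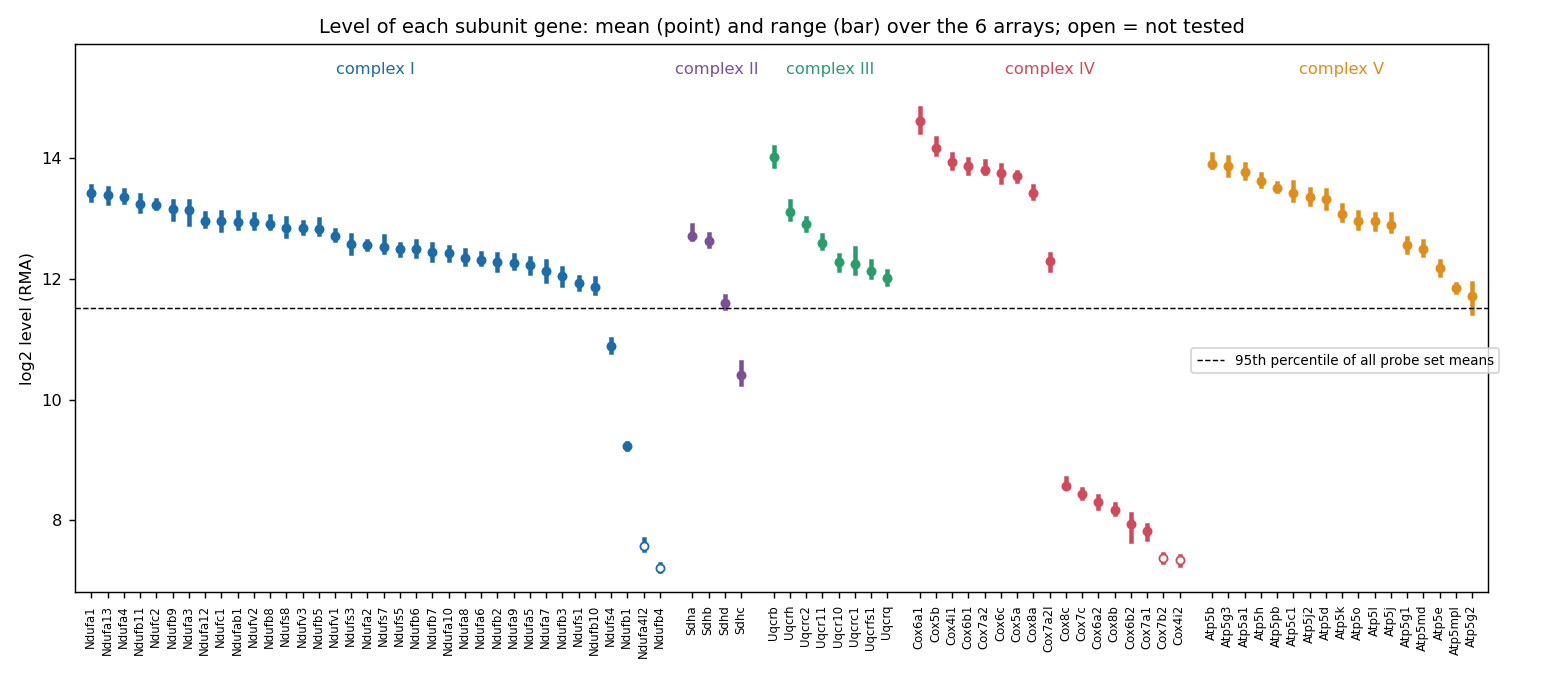
Log2 level (RMA) of each of the 82 subunit genes, by complex on the x axis and ordered by mean within a complex; points are means over the 6 arrays, bars run from the lowest to the highest array, open points were not tested, and the dashed line is the 95th percentile of all probe set means, 11.53. Most genes sit above the line with ranges under 0.5, and the dim genes of complex IV are mainly muscle and testis isoforms.

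Upstream sequence was looked up for the subunit genes because factors bound there, NRF1, GABP of the ETS family and YY1, are known for their role in this pathway. RefSeq windows (GRCm38.p6, 250 bases before to 50 after a transcription start) were matched for 67 of the 82 genes, in 72 windows. On either strand, the NRF1 core CGCATGCG was in 8 windows (11.11%, against 1.87% of all 32851 windows), those of Atp5g2, Atp5j, Atp5k, Atp5l, Cox6a1, Ndufa8, Uqcr11 and Uqcrc1. The ETS core CCGGAAG was in 17 (23.61% against 8.86%) and the YY1 core AAGATGGC in 9 (12.5% against 2.75%). The CCAAT box, whose letters are its name, was in 40.28% of the windows and in 37.41% of all windows. A match of letters is not a bound site. The 250 bases before the start are shown for Cox6a1 and Cox6b2, the genes that passed the test described further on, with Cox6b1, the common isoform beside Cox6b2, and Atp5g2, the gene with the largest range. They lie on the minus strand at chr5:115348959-115349208 (Cox6a1), chr7:4753095-4753344 (Cox6b2), chr7:30626115-30626364 (Cox6b1) and chr15:102671048-102671297 (Atp5g2), upstream of the transcribed part, and read 5′ to 3′ with matches to the 4 motifs, on either strand, in capitals. The NRF1 core is in the stretches of Cox6a1 and Atp5g2 and the ETS core in those of Cox6a1 and Cox6b1, while Cox6b2 has CCAAT boxes alone among the 4 motifs.
Cox6a1: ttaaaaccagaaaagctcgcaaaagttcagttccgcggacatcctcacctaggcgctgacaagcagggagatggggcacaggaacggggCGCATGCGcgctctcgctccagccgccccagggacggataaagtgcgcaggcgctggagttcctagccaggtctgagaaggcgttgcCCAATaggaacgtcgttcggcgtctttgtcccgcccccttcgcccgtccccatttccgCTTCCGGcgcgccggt
Cox6b2: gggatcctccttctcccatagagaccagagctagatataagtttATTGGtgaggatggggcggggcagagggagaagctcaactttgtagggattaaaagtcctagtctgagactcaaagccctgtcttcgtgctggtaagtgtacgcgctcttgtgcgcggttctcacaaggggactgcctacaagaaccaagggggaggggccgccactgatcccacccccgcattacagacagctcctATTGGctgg
Cox6b1: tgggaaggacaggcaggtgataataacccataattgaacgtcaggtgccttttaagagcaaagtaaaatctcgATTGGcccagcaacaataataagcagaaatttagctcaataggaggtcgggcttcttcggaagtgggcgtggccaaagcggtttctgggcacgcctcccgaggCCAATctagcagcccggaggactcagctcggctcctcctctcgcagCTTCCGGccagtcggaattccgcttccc
Atp5g2: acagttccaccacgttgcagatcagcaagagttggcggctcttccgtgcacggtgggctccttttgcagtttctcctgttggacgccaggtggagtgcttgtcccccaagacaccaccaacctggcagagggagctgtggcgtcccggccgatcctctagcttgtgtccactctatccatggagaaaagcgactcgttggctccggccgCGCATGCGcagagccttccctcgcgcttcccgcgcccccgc

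Low dose replicate 2 was the highest of the 6 arrays for most subunit genes, 61 of 78 (78.2%), where it was the highest for 45.3% of all tested genes. On this array 76 of the 78 (97.4%) lay above their own 6-array mean, and so did 86.6% of all tested genes. The median deviation from the gene's own mean was 0.12 log2 on this array, and 0.085 for all tested genes. The other arrays were at -0.018 (control replicate 1), -0.037 (control replicate 2), -0.066 (low dose replicate 1), -0.034 (high dose replicate 1) and 0.043 (high dose replicate 2). After quantile normalization, which gives all arrays the same distribution of values, the deviation on low dose replicate 2 was 0.0069, and 0.0081 for all tested genes. The highest median of the subunit genes was then that of high dose replicate 2, 0.043. The medians over sets of genes in the comparisons with the low dose, and the single genes named first there, are therefore also given without low dose replicate 2.

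**Figure D2:**
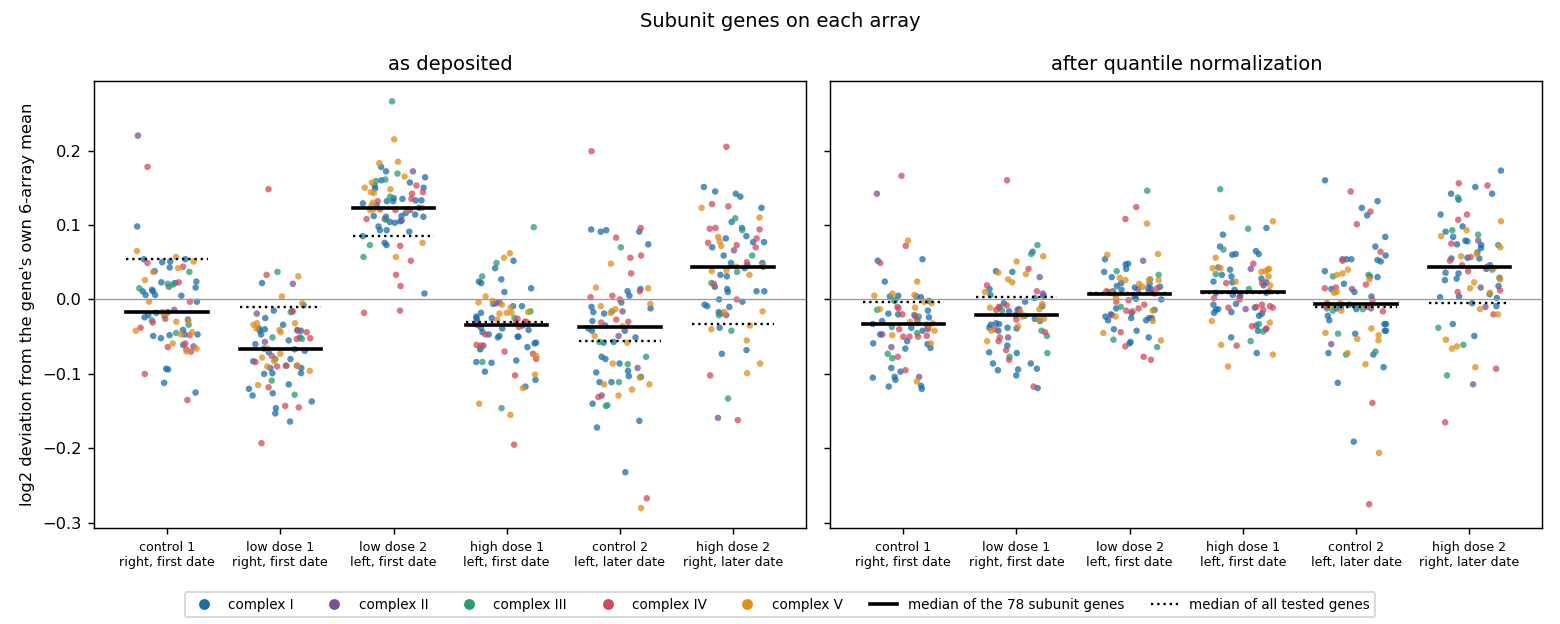
Log2 deviation of each of the 78 tested subunit genes from its own 6-array mean (y axis) on each array (x axis), as deposited (left) and after quantile normalization (right); colours mark the complex, solid bars the median of the subunit genes and dotted bars that of all tested genes. As deposited, the genes sit high on low dose replicate 2 (median 0.12), and after quantile normalization the median there is 0.0069.

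The comparison of high dose with control asks what the higher dose left changed after a month. No subunit gene passed the test (limma, Benjamini-Hochberg adjusted p under 0.05 over all 11743 genes), 0 of 78 beside 0.00852% of all tested genes, and 0 of 78 had an unadjusted p under 0.05 (background 2.76%). The median difference was 0.030 log2, with 56 of 78 genes higher, while the median of all tested genes was -0.030; after quantile normalization the median of the subunit genes was 0.046, with 62 higher. Without high dose replicate 2 the median was -0.0059 (-0.026 for all tested genes) with 33 of 78 higher, so the direction as deposited rested on that array. The groups did not overlap for 13 genes, 12 higher (background 8.03%) and 1 lower (background 18.7%). By complex, the median was 0.037 in I (26 of 34 higher), 0.015 in II (3 of 4), 0.040 in III (6 of 8), 0.016 in IV (11 of 15) and 0.023 in V (10 of 17).

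Uqcr10, a small subunit of complex III, had the highest moderated t for this comparison: 12.27 and 12.15 in control against 12.34 and 12.40 at the high dose, a difference of 0.16 (SE 0.10, limma adjusted p 0.9997). Next were Atp5l (0.12) and Atp5md (0.11), both of the membrane part of ATP synthase, Ndufa3 (0.095), Atp5g2 (0.099) and Ndufb3 (0.091). At the other end were Sdhc, -0.16 (SE 0.11), Cox6a2, -0.13, Uqcrb, -0.096, Ndufb7, -0.052, Cox6b2, -0.051, and Uqcrc1, -0.047. The values of Cox6a2 were 8.33 and 8.40 in control and 8.27 and 8.20 at the high dose, and the groups did not overlap. Cox6a2 is known to be expressed in parvalbumin interneurons. Of the 4 markers listed for them (Pvalb, Gad1, Gad2 and Erbb4), 3 passed the filter. The summed log2 level of the list was 13.42 to 13.74 in control and 13.38 to 13.57 at the high dose. Gad1, shared by GABA neurons in general, makes up most of this sum (6-array mean 13.03). Pvalb itself was at 10.705 and 10.33 in control and 10.63 and 10.50 at the high dose. The part of these cells in the value of Cox6a2 was not tested. The widest 95% intervals of the 78 genes ran from -0.39 (Sdhc) to 0.37 (Uqcr10).

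The median did not have the same sign on both dates, a difference that was not tested. On the first date, high dose replicate 1 minus control replicate 1 gave a median of -0.021, with 28 of 78 genes above 0 (35.9%; background 22.4%). On the later date, high dose replicate 2 minus control replicate 2 gave 0.082, with 72 of 78 above 0 (92.3%; background 58.9%). Within the left pools the median was 0.0055 and within the right pools 0.050 (0.026 and -0.087 for all tested genes). Each of these pairs sets an array of 1 date against an array of the other date. After quantile normalization, the medians of the 2 dates were 0.046 and 0.044.

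Low dose was compared with control for the response to 30 mg/kg/day, with date and RIN partly mixed in. Both low dose arrays are of the first date (RIN 9.1 and 8.9), and control replicate 2 is of the later date (RIN 7.9). Of the 78 subunit genes, 0 passed the limma test (background 0.0426%) and 0 had an unadjusted p under 0.05 (background 3.32%). The median difference was 0.053 log2 with 66 of 78 genes higher as deposited, and 0.0037 with 41 higher after quantile normalization. The median of all tested genes was 0.038. With date as a block in the fit, the medians were 0.068 for the subunit genes and 0.012 for all tested genes. Without low dose replicate 2 the median was -0.038 (-0.0080 for all tested genes). Without low dose replicate 1 it was 0.15 (0.085 for all tested genes), so the direction rested on low dose replicate 2. Complex V had 17 of 17 genes higher as deposited (median 0.084), 11 of 17 after quantile normalization and 5 of 17 without low dose replicate 2 (median -0.0099). The groups did not overlap for 3 genes, Uqcrc1, Ndufab1 and Cox8c, all higher (background 13.4%).

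Atp5g2 differed most, by 0.23 (SE 0.12, limma adjusted p 1): 11.77 and 11.44 in control, 11.75 and 11.93 at the low dose, which overlap. Uqcrc1 differed by 0.20, Cox6b2 by 0.19, Ndufa3 by 0.18, and Ndufab1 and Atp5j, a coupling subunit of the stalk, by 0.13 each. Without low dose replicate 2 these were 0.14 (Atp5g2), 0.089 (Uqcrc1), 0.19 (Cox6b2), 0.11 (Ndufa3), 0.049 (Ndufab1) and 0.043 (Atp5j). Without control replicate 1, Atp5g2 (0.40, limma adjusted p 0.024) and Cox6b2 (0.41, adjusted p 0.0208) passed the test. The control is then 1 array, that of the later date, which is assumed to vary like the arrays of the other groups. Both low dose arrays are of the first date, so dose and date cannot be told apart in that fit. Cox6b2 deviated from its own 6-array mean by 0.178 and -0.267 on control replicates 1 and 2, and by 0.148 and 0.135 on the low dose arrays. With the higher of the means in control were Cox7a2l (-0.074), Cox6a1 (-0.068), Cox6a2 (-0.051), Ndufb9 (-0.027), Cox5a (-0.026) and Ndufb1 (-0.023). For Ndufab1, another probe set at a log2 level of 8.95 gave -0.36 where the brightest gave 0.13. The widest intervals ran from -0.34 (Cox6a1) to 0.47 (Atp5g2).

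Of 7 oligodendrocyte markers, 6 were measured, and 6 of 6 had the higher mean at the low dose than in control, beside 7934 of 11743 tested genes. The median was 0.30 log2, and 0.25 after quantile normalization. By limma 0 passed and 5 had an unadjusted p under 0.05 (background 3.32%). Without low dose replicate 2, 5 of 6 were higher (median 0.24), and on the first date alone, where control is 1 array, 6 of 6 were higher with a median of 0.17. Their summed log2 level was 15.61 to 15.64 in control, 15.73 to 15.91 at the low dose and 15.55 to 15.62 at the high dose. Of 14 choroid plexus markers, 12 were measured, and their sum was 15.21 to 15.29, 15.21 to 15.46 and 15.09 to 15.58. This sum mostly follows Ttr, with a 6-array mean of 15.035, where the next marker, Igfbp2, was at 10.05. Over the 12 markers, the median deviation from a gene's own mean was -0.0019 and -0.33 on control replicates 1 and 2. It was 0.030 and 0.23 on the low dose arrays and -0.18 and 0.26 on the high dose arrays. The part of both marker lists in the values of the subunit genes was not tested.

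High against low dose asks whether the doses differ. Here too date and RIN are partly mixed in, since high dose replicate 2 is of the later date. Again 0 of 78 genes passed the limma test (background 0%), and 1 had an unadjusted p under 0.05 (background 6.21%). The median was -0.020 with 26 of 78 genes higher as deposited, and 0.044 with 56 higher after quantile normalization, so the direction was not the same under both scalings. The median of all tested genes was -0.066. Without low dose replicate 2 the median was 0.070 (-0.021 for all tested genes). Without low dose replicate 1 it was -0.12, and it was also -0.12 for all tested genes. The groups did not overlap for 7 genes, all lower at the high dose (background 37.3%).

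The gene with an unadjusted p under 0.05 was Uqcrc1, at 12.18 and 12.11 on the high dose arrays and 12.28 and 12.51 on the low dose arrays. It differed by -0.25 (SE 0.11, 95% interval -0.47 to -0.027, limma adjusted p 0.779). Without low dose replicate 2 the difference was -0.14 (limma adjusted p 0.9997). Cox6b2 followed at -0.24, Sdhc at -0.18, Uqcrb at -0.16, Atp5j at -0.15 and Atp5g2 at -0.14, and without low dose replicate 2 these were -0.24, -0.13, -0.066, -0.057 and -0.043. The genes with the highest t were Cox7a2l (0.095), Uqcr10 (0.076), Ndufb3 (0.077), Cox8c (0.065), Ndufc1 (0.068) and Ndufb11 (0.054). For Ndufab1 the probe set at 8.95 gave 0.43 and the brightest -0.073. The low dose arrays are in this comparison and in the one with control, so the values of Uqcrc1 and Atp5g2 in both rest on the same low dose pools.

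**Figure D3:**
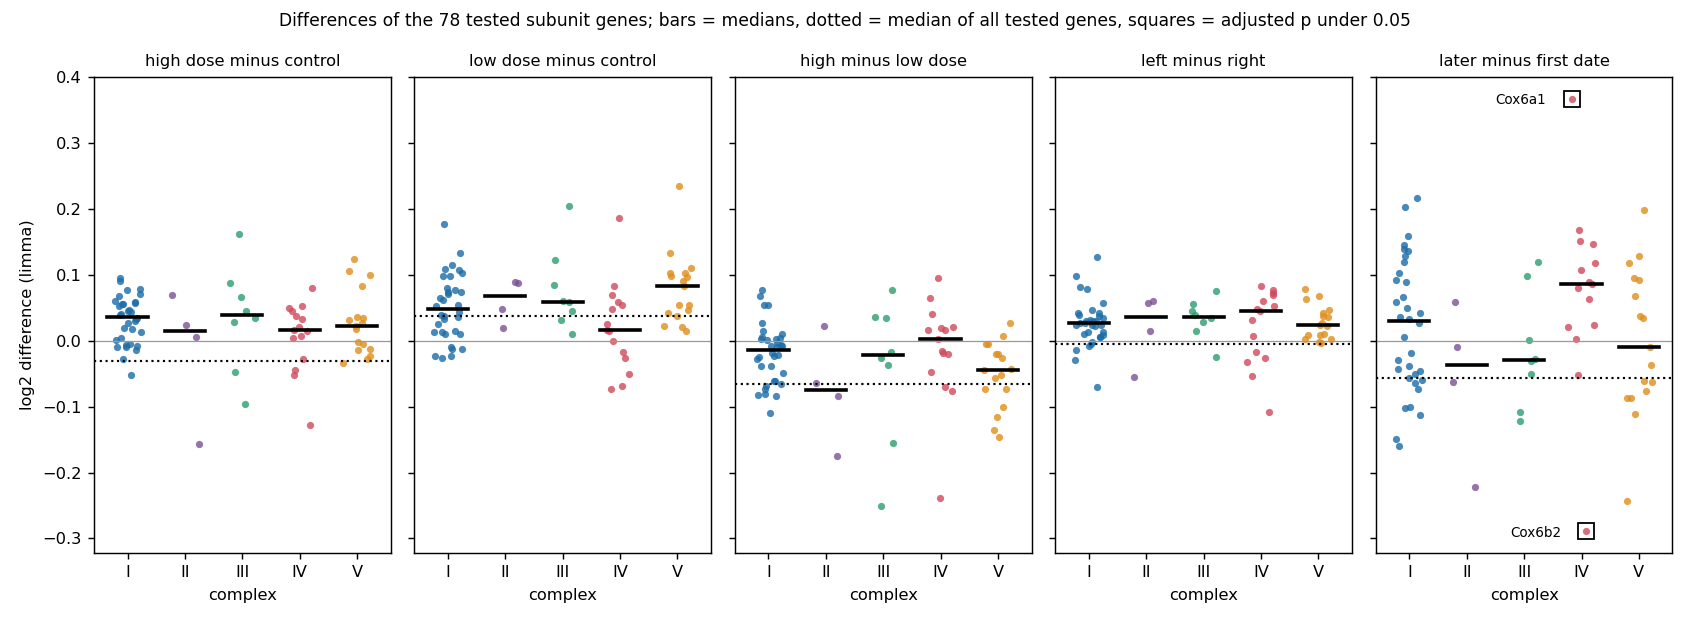
Log2 differences (limma) of the 78 tested subunit genes on the y axis, by complex on the x axis, for the 5 comparisons; points are genes, solid bars the median of a complex, dotted lines the median of all tested genes, and squares the genes with an adjusted p under 0.05. No gene is marked in the dose or side comparisons, where quantile normalization turns the median of high minus low dose from -0.020 to 0.044, and Cox6a1 and Cox6b2 are marked for the date.

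Left and right pools were compared within dose. No gene passed the limma test, 0 of 78 subunit genes beside 0% of all tested genes, and 0 of 78 had an unadjusted p under 0.05 (background 0.341%). The median of left minus right was 0.029 with 63 of 78 genes higher on the left, and 0.011 with 51 higher after quantile normalization; the median of all tested genes was -0.0055. In no subunit gene did all left arrays lie on 1 side of all right arrays (background 2.06%). The median was -0.033 in control, 0.20 at the low dose and -0.072 at the high dose. For all tested genes these were -0.11, 0.094 and 0.0042. In control the left pool is the array of the later date, and at the high dose it is that of the first date. Side and date thus cannot be told apart within either of these pairs. The low dose pair had 75 of 78 genes above 0 (background 83.8%). Without low dose replicate 2 the median over the other pairs was -0.056, and it was also -0.056 for all tested genes. Genes with the highest t were Ndufs8, an iron-sulfur subunit (0.13), Ndufa13 (0.099), Cox6a1 (0.083), Ndufb7 (0.082), Ndufb9 (0.079) and Atp5h (0.078). Those with the lowest were Cox6b2 (-0.11), Ndufa3 (-0.070), Sdhc (-0.055), Cox8c (-0.054), Cox7a1 (-0.032) and Ndufa10 (-0.029). SE was 0.11 for each of them.

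In the fits over all 6 arrays, hybridization date was the only comparison in which subunit genes passed the test. The difference was estimated within control and high dose, since both low dose arrays share the first date, and the later arrays also have the lowest RIN of their groups, so date and RIN cannot be told apart. By limma, 2 of 78 subunit genes had an adjusted p under 0.05, beside 6.97% of all tested genes (145 higher, 1.23%, and 673 lower, 5.73%, at the later date). An unadjusted p under 0.05 was found for 7 (background 19.5%). The median was 0.025 with 44 of 78 higher as deposited, and 0.022 with 51 higher after quantile normalization, while the median of all tested genes was -0.057. The control pair had a median of -0.033 and the high dose pair 0.072, and 50 of 78 genes had the same sign in both pairs (64.1%, against 61.6% of all tested genes). Complex IV had the highest median, 0.087, with 13 of 15 genes higher (11 of 15 after quantile normalization), against 0.030 in I, -0.036 in II, -0.029 in III and -0.0100 in V.

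Cox6a1, the common isoform of a complex IV subunit, rose at the later date. Its arrays of the first date were at 14.49 (control), 14.43 and 14.75 (low dose) and 14.43 (high dose), and those of the later date at 14.83 (control) and 14.83 (high dose). The groups did not overlap, although low dose replicate 2 came near the later arrays. The difference was 0.37 (SE 0.092, limma adjusted p 0.0029), that is 1.29-fold, with 0.33 in the control pair and 0.40 in the high dose pair. Its second probe set, at 13.33, differed by 0.029. With all probe sets averaged per gene the difference was 0.20 and after quantile normalization 0.12, and neither passed. Its upstream window, shown above, holds the NRF1 core, an ETS core and a CCAAT box.

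Cox6b2, the testis isoform, fell at the later date on its 1 probe set. The values were 8.10 (control), 8.07 and 8.06 (low dose) and 7.90 (high dose) on the first date, and 7.66 (control) and 7.76 (high dose) on the later date, without overlap. The difference was -0.29 (SE 0.092, limma adjusted p 0.0307), with -0.45 in the control pair and -0.13 in the high dose pair. These levels are near the median of the array. On the later arrays that median was 7.799 (control) and 7.804 (high dose), so Cox6b2 lay below it there. It lay above the median on each array of the first date, and passed the filter on dim genes through those arrays alone. A filter on all 6 arrays took it out, so its call depends on a filter tied to the date. With the replicate number as a block, 0 of 78 subunit genes passed for the date. With a side block Cox6a1 alone passed, and without either control array no subunit gene passed. Without either high dose array, Cox6b2 alone passed.

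Other genes did not pass. Atp5g2 was at 11.44 and 11.63 on the later arrays and 11.75 to 11.93 on those of the first date, a difference of -0.24 (limma adjusted p 0.0886). Sdhc differed by -0.22 (adjusted p 0.131), Ndufb2 by -0.16, Ndufa7 by -0.15 and Uqcrc1 by -0.12. On the other side were Ndufb11 (0.22), Ndufb9 (0.20), Atp5g3 (0.20), Cox5b (0.17) and Ndufa13 (0.16). Groups did not overlap for 15 genes, 4 higher (background 5.19%) and 11 lower (background 30.1%). The c ring genes did not share a direction: Atp5g2 had the lower values at the later date (-0.18 after quantile normalization, where it passed with a limma adjusted p of 0.0449), and Atp5g3 the higher mean, 13.93 and 14.00 against 13.72 to 14.02 (0.13 after quantile normalization). Marker sums lay apart by date for the parvalbumin interneuron and oligodendrocyte lists alone. The sums of the other lists overlapped, those of hippocampal neurons at 16.01 to 16.22 (first date) and 16.09 to 16.12 (later date). The same held for astrocytes, microglia, choroid plexus, pericytes, endothelium, red blood cells and muscle. The sum of the parvalbumin interneuron list, mostly Gad1, was 13.57 to 13.76 on the first date and 13.38 to 13.42 on the later one. Pvalb itself was at 10.63 to 10.89 and at 10.33 and 10.50. The sum of the oligodendrocyte list was 15.617 to 15.908 and 15.546 to 15.613, which nearly meet. Mbp, its brightest measured marker, was at 14.52 to 14.84 on the first date and at 14.67 and 14.65 on the later one. Mobp overlapped too, while Cnp, Mag, Mal and Mog were lower on both later arrays. The part of these cells was not tested.

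**Figure D4:**
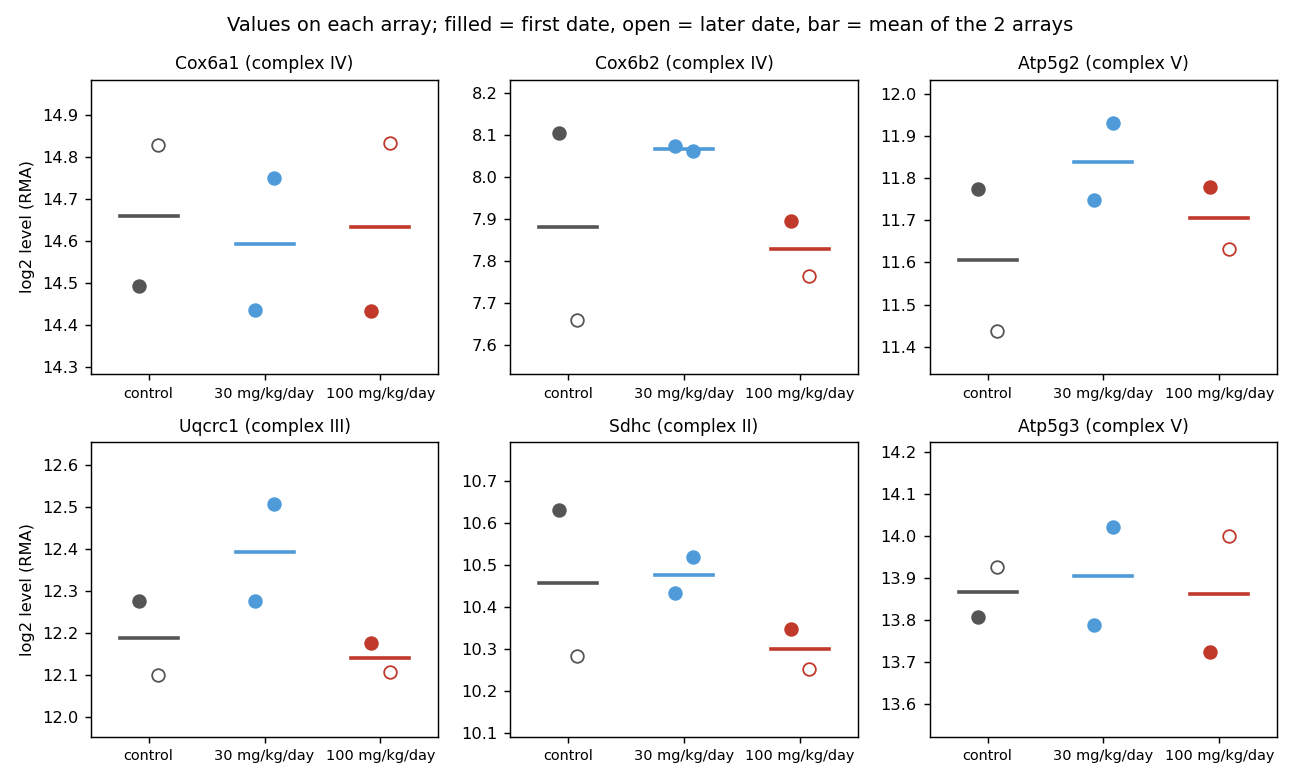
Log2 levels (RMA, y axis, each panel spanning 0.7) of 6 subunit genes on each array, by dose group on the x axis; filled points are arrays of the first date, open points of the later date, and bars the mean of the 2 arrays. For Cox6a1 the open points are the highest (14.83), for Cox6b2, Atp5g2, Uqcrc1 and Sdhc the lowest, and the dose groups of Cox6a1 overlap.

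The other genes of the pathway were taken from lists. As background for these lists, 0.00852% (high against control), 0.0426% (low against control) and 0% (high against low) of all tested genes passed by dose. By date 6.97% passed. An unadjusted p under 0.05 was found for 2.76%, 3.32% and 6.21% by dose and 19.5% by date. Of 43 assembly factors, the chaperones and cofactor enzymes that build the complexes, 41 were tested, and by limma 0 passed in any dose comparison, with an unadjusted p under 0.05 for 0 (high against control), 0 (low against control) and 2 (high against low). Their medians were -0.0045 (high against control), 0.070 (low against control) and -0.074 (high against low), or 0.039, 0.042 and 0.0030 after quantile normalization. Without low dose replicate 2, the medians against control and of high against low dose were 0.0070 and -0.0009. By date 1 of 41 passed: Cox15, which makes heme A for complex IV, at -0.42 (limma adjusted p 0.000398). Of 16 genes of the citric acid cycle and pyruvate dehydrogenase, by limma 0 passed by dose (0 with an unadjusted p under 0.05) and 1 by date: Dld, a subunit shared by several dehydrogenases (-0.32, limma adjusted p 0.0125).

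Carriers and pores of the inner and outer membrane numbered 10, with medians of 0.014, 0.073 and -0.056 in the same order (the last pair -0.026 and 0.044 without low dose replicate 2), and by limma 0 passed in any comparison, where Ckmt1, a creatine kinase, was the 1 gene with an unadjusted p under 0.05 in high against low dose (-0.27) and in the date comparison (-0.25). Of 18 regulators of mitochondrial biogenesis, 17 were tested. In high against control, 14 of 17 were lower, beside 7527 of 11743 tested genes. The median was -0.085, or -0.041 after quantile normalization, against -0.030 and 0.0086 for all tested genes. By limma 0 passed while 3 had an unadjusted p under 0.05 (background 2.76%). Yy1 was at -0.26, Ppargc1b at -0.24 and Ppargc1a at -0.25, the last pair being coactivators of the pathway, each with a limma adjusted p of 0.9997. Control replicate 1 was the highest of the 6 arrays for 11 of the 17, and for 28.9% of all tested genes. The median deviation from a gene's own mean was 0.15 on this array, and 0.054 for all tested genes. For the 17 genes, control replicate 2 was at -0.071 and the high dose arrays at -0.023 and -0.091. Without control replicate 1, 7 of 17 were lower and the median was 0.015, so the direction over the list rested on that array. The median of all tested genes turned with it, from -0.030 to 0.023. Yy1, Ppargc1b and Ppargc1a were then at -0.19, -0.18 and -0.042. By date, 2 of 17 passed, Prkaa1 (-0.39, limma adjusted p 0.00145) and Prkaa2 (-0.32, adjusted p 0.0135), the catalytic subunits of AMP-activated protein kinase.

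Mitochondrial ribosomal proteins, which translate the subunits of mitochondrial DNA, had 76 tested genes with 0 past limma's threshold by dose (unadjusted p under 0.05 for 1, 0 and 1) and 4 lower by date. The cytosolic ones had 46 of 49 tested, with 0 by dose (unadjusted p under 0.05 for 1 in each) and 1 in each direction by date. The mitochondrial gene ND5, of complex I, was measured by 1 probe set at 14.15 and 14.05 in control, 14.26 and 14.42 at the low dose and 14.27 and 14.19 at the high dose. As deposited both doses lay above control without overlap, by 0.23 (SE 0.10, limma adjusted p 1; 13.4% of all tested genes lay so) and 0.12 (SE 0.10, limma adjusted p 0.9997; 8.03% of all tested genes). After quantile normalization high dose and control overlapped, with deviations from the gene's mean of -0.0024 and -0.21 in control and 0.12 and -0.11 at the high dose, and without low dose replicate 2 the low dose differed by 0.15. The mobile electron carrier Cycs and the complex III cytochrome Cyc1 differed by -0.016 and 0.0096 between high dose and control. Atpif1, the inhibitor that binds ATP synthase, was lower at the later date, at 12.50 and 12.47 against 12.62 to 12.79 (difference -0.27, limma adjusted p 0.0485).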

How the data were processed

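Total RNA of 6 hippocampal pools was hybridised to 1 array each. The authors deposited log2 expression values per probe set; per the submitters' processing notes they used RMA and R 3.0.1, and no source used here gives the background and normalization settings. The deposited arrays do not share 1 distribution, so a further quantile normalization was an alternative. From these values, differences were fitted in R 4.3.3 by limma 3.58.1, with two-sided moderated tests and Benjamini-Hochberg adjusted p-values over all tested genes at a threshold of 0.05. Dose was the only term for the dose comparisons over all 6 arrays, and side and date were each fitted beside dose, where limma estimated the same spread for every gene. The fit was run on simulated arrays with known changes and with noise drawn independently for each gene and array. Shifts shared by many genes of an array were not simulated, so that run cannot speak to them. The platform annotation names 1 gene for 34945 of 45101 probe sets, several for 932 and none for 9160 (64 are controls); 10 probe sets with several symbols, 1 of them of this family, were left out.

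Subunit genes and gene lists were chosen with earlier results of these data known. Named are a panel of 48 symbols (44 found), the 6 highest and 6 lowest moderated t per comparison, the largest and smallest SD per complex, genes with probe sets of opposite sign, and all genes past the threshold; up to 3 genes are named per other list. Replicate numbers match the date in control and high dose (correlation of their replicate differences over genes 0.54) and not for the low dose (0.077 and 0.13), so they were taken to pair control and high dose alone. The number of arrays limits the precision. Alternatives were other filters, averaged probe sets, scalings, trend and robust fits, RIN, date, side or replicate as a covariate or block, single arrays, and each array left out.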

Additional observations from a re-analysis of the deposited data

Results flagged for a closer look

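Medians of the 78 subunit genes had opposite signs in pairs of single-array differences, and none of these differences was tested. High dose minus control had a median of -0.021 for the arrays of the first date, and 0.082 for those of the later date. For all tested genes these were -0.085 and 0.023. Low dose minus control was 0.16 in the left pools and -0.049 in the right pools, and 0.14 and -0.065 for all tested genes. After quantile normalization the subunit genes were at -0.0043 and 0.0091. High minus low dose was -0.16 (left) and 0.12 (right), and -0.12 and -0.023 for all tested genes. Quantile normalization gave 0.0089 and 0.079 for the subunit genes, with the same sign. Left minus right was 0.20 at the low dose, against -0.033 in control and -0.072 at the high dose. For all tested genes these were 0.094, -0.11 and 0.0042. Later minus first date was -0.033 in control and 0.072 at the high dose, and -0.11 and -0.0042 for all tested genes. These are the same pairs of arrays as left minus right, with the sign turned at the high dose. Side and date cannot be told apart within such a pair. After quantile normalization, the medians of high dose minus control were 0.046 and 0.044, and that of left minus right at the low dose was 0.023.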

How the results depend on the processing

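Under the alternatives, 0 subunit genes passed in the 3 dose comparisons and the side comparison, except that 2 (Atp5g2 and Cox6b2) passed in low against control without control replicate 1 (range over the arrays left out 0 to 2). For the date, 2 passed in the fit over all 6 arrays. The count was 1 with a filter on all 6 arrays, 1 with trend and robust, 1 with a side block, 5 after quantile normalization (Atp5g2, Cox6b2, Cox7a2l, Ndufb11 and Ndufb9) and 0 with RIN as a covariate; with averaged probe sets it was 2, Atp5o and Cox6b2. Leaving out 1 array gave 0 to 2. With the replicate block, which pairs control and high dose by date, 0 passed for the date. The median was -0.16, and it was also -0.16 for all tested genes. The block takes the difference of the low dose pair off that of the control and high dose pairs. It changed no call in the dose and side comparisons. Medians of the subunit genes ran from -0.038 to 0.15 (low against control), -0.0059 to 0.072 (high against control), -0.12 to 0.070 (high against low), -0.056 to 0.065 (left against right) and -0.033 to 0.072 (later against first date) with 1 array left out. A group left with 1 array is assumed to vary like the others. Single arrays gave low minus control 0.16 (left), -0.049 (right and first date, low dose replicate 1) and 0.14 (first date, low dose replicate 2). For all tested genes these were 0.14, -0.065 and 0.028. High minus low gave -0.16 (left, also the first date with low dose replicate 2) and 0.12 (right), beside -0.12 and -0.023 for all tested genes. Left minus right gave 0.20 (low dose) and -0.072 (high dose), beside 0.094 and 0.0042. Single genes below changed sign under the setting named, with the cause not tested. With averaged probe sets, low against control gave Cox5a 0.054, Cox6a1 0.010, Ndufab1 -0.085 and Ndufb9 0.035; high against low gave Ndufab1 0.072. With RIN as a covariate, low against control gave Atp5g2 -0.018, Cox6a1 0.34, Cox6b2 -0.18, Cox7a2l 0.10 and Ndufb9 0.22; high against low gave Atp5g2 0.10, Cox6b2 0.10, Cox7a2l -0.067, Ndufb11 -0.18, Ndufb3 -0.035, Ndufc1 -0.068 and Sdhc 0.069; left against right gave Cox6a1 -0.068, Cox6b2 0.015, Ndufb9 -0.0031 and Sdhc 0.042; later against first date gave Ndufa13 -0.052. With the replicate block, left against right gave Cox6a1 -0.038; later against first date gave Atp5g3 -0.035, Cox5b -0.069, Ndufa13 -0.056 and Ndufb9 -0.071. With a date block, low against control gave Cox6a1 0.12, Cox7a2l 0.0021 and Ndufb9 0.075; high against low gave Ndufb11 -0.054 and Ndufc1 -0.0015. On the first date alone, high against control gave Ndufa3 -0.075; low against control gave Cox6a1 0.10, Cox6b2 -0.036 and Ndufb9 0.066; high against low gave Cox8c -0.014, Ndufb11 -0.060, Ndufb3 -0.0080 and Ndufc1 -0.041. With 1 array left out, high against control ran from -0.069 to 0.27 (Atp5g2), from -0.27 to 0.17 (Cox6b2), from -0.046 to 0.24 (Ndufa3), from -0.12 to 0.018 (Ndufb7), from -0.33 to 0.018 (Sdhc) and from -0.14 to 0.042 (Uqcrc1). With 1 array left out, low against control ran from -0.10 to 0.048 (Cox5a), from -0.24 to 0.10 (Cox6a1), from -0.036 to 0.41 (Cox6b2), from -0.16 to 0.016 (Cox7a2l), from -0.071 to 0.025 (Ndufb1) and from -0.16 to 0.11 (Ndufb9). With 1 array left out, high against low ran from -0.014 to 0.15 (Cox8c), from -0.16 to 0.011 (Ndufab1), from -0.060 to 0.17 (Ndufb11), from -0.055 to 0.21 (Ndufb3) and from -0.051 to 0.19 (Ndufc1). With 1 array left out, left against right ran from -0.043 to 0.32 (Cox6a1), from -0.23 to 0.060 (Cox6b2), from -0.13 to 0.042 (Cox7a1), from -0.12 to 0.063 (Ndufa10), from -0.17 to 0.035 (Ndufa3), from -0.0038 to 0.19 (Ndufb7), from -0.018 to 0.23 (Ndufb9) and from -0.13 to 0.091 (Sdhc). Of the values recomputed for single genes and counts over all genes, 909 kept direction and side of the threshold, 83 turned, 42 moved to the called side of the threshold and 30 to the other. Of the medians and counts of the subunit genes, 157 held, 16 medians moved by more than the spread between arrays, and 9 counts were lower and 2 higher by over 1.5 times. With 2 arrays per group, median half-widths of the unadjusted 95% intervals were 0.22 log2 in the dose comparisons. Smaller differences could thus not be told from 0 for a typical subunit gene. Larger ones could also miss the adjusted threshold, as Uqcrc1 did in high against low dose (-0.25, limma adjusted p 0.779). Values of this size changed with the scaling, with date or RIN in the fit, and with low dose replicate 2 left out, and the cause was not tested.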

Other observations

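Probe sets of 1 gene differed by date in several subunit genes, picked here after their values were seen. For Atp5o, of the peripheral stalk, a second probe set at a log2 level of 11.51 gave -0.49 for later minus first date (control pair -0.65, high dose pair -0.34), where the brightest gave -0.077. For Uqcrb the second probe set, at 11.57, gave -0.32 and the brightest 0.12. For Ndufb6 they gave -0.22 and 0.027, and for Cox6a1 0.029 and 0.37. Ndufb11 had 3 probe sets, with 0.22, 0.16 and -0.020. These values of single probe sets were not tested one by one. With the probe sets averaged per gene, Atp5o passed the date comparison, at -0.29 (limma adjusted p 0.0243).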
